A study of Macaca mulatta with 24 samples.

Results

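The colon of rhesus macaques taken 7 days after 7.4 Gy of total-body irradiation was compared with the colon of unirradiated animals. The comparison was defined by the sample labels alone and holds 8 of the 24 arrays of the series, 4 of animals irradiated with 7.4 Gy and taken on day 7 and 4 of controls. All animals were young-adult males without known disease. The irradiated animals received a uniform gamma dose to the whole body from a cobalt-60 source in 1 exposure, and the controls were sham-irradiated. The labels place the controls on day 4, and the same 4 controls served every dose and day, so that no control was matched to day 7. About 3 cm of colon was removed, and total RNA came from whole gut tissue of it and therefore mixes epithelium, immune cells, stroma and muscle, and each RNA was hybridised without pooling to its own 1-colour array. The remaining arrays came from colon taken 4 days after 7.4 Gy and 4 or 7 days after 6.7 Gy (4 animals each) and 12 days after either dose (2 animals each). The question was which transcripts differed from unirradiated colon on day 7, and how that day compared with day 4 at the same dose and with the lower dose on the same day.

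Ionising radiation breaks DNA, and the transcription factor p53 then induces genes for cell cycle arrest, repair and death. The colon surface is renewed from stem cells at the base of the crypts, which makes the epithelium sensitive to radiation, and cells that survive in the crypts regrow it. Lymphocytes and the precursors of blood cells in bone marrow are also among the most radiosensitive cells of the body, and the colon wall holds many lymphocytes, alone and in follicles.

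The arrays of both groups were of similar quality. Between 70.4% and 80.0% of the transcript probes were well above background on the control arrays, and between 72.8% and 80.7% on the irradiated arrays. Pairs of arrays correlated at r between 0.971 and 0.980 within the controls, between 0.967 and 0.979 within the irradiated group and between 0.957 and 0.978 across the groups. All 10 tested genes of a colon epithelium identity list, among them the intestinal genes CDX1, CDX2, CDH17 and LGALS4, were well above background on all 8 arrays. The mean level of this list lay between 4.24 and 4.42 in the controls and between 4.13 and 4.48 in the irradiated animals. Levels here and throughout are log2 signals relative to the 75th percentile of the array, so that 0 is that percentile, and a difference is the irradiated mean minus the control mean. A principal component analysis of the 8 arrays showed 2 arrays standing apart from their group. The first component (28.6% of the variance) placed irradiated animal 3 at -22.7, within the range of the controls (-53.0 to -21.5), while the other irradiated animals lay between 17.3 and 94.0. The second component (16.8%) placed control 1 at 87.0 and the other controls between -33.5 and -25.1. Where leaving out 1 of these arrays changed the calls of a list described here, the values without it are given.

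Few transcripts passed the test on day 7. Among the 35395 probes tested, 164 (0.463%) were called, meaning that the groups differed 2-fold or more and that the adjusted p of limma was under 0.05. Of these, 55 were higher (0.155%) and 109 lower (0.308%) after irradiation. At an unadjusted p, 936 probes (2.64%) passed. The control and irradiated arrays did not overlap in 143 of the 164, against 6.04% of all probes tested (3.17% higher and 2.87% lower). With 1 probe per gene, 80 of 13953 genes (0.573%) were called, 34 higher (0.244%) and 46 lower (0.33%), and in 64 of these 80 genes the irradiated and control arrays did not overlap, against 6.78% of all genes tested. The median difference over all genes tested was 0.01. The count of called probes moved with single arrays and with the estimate of spread. It was 348 without irradiated animal 3 and 233 without control 1. Without irradiated animals 4, 2 and 1 it was 29, 92 and 103, and without controls 4, 2 and 3 it was 55, 68 and 119. When only the 8 arrays were fitted, 15 probes were called. With slide as a fixed block 34 probes were called and with slide as a random block 207, which include all 164. The values given for single genes with slide as a block come from the fixed block. Scaling to the spike-in controls moved the median over all probes to 0.17 and gave 78 higher and 40 lower probes. All controls lay at 1 position of their slides and no irradiated day 7 array did, so array position and irradiation cannot be told apart.

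**Figure D1:**
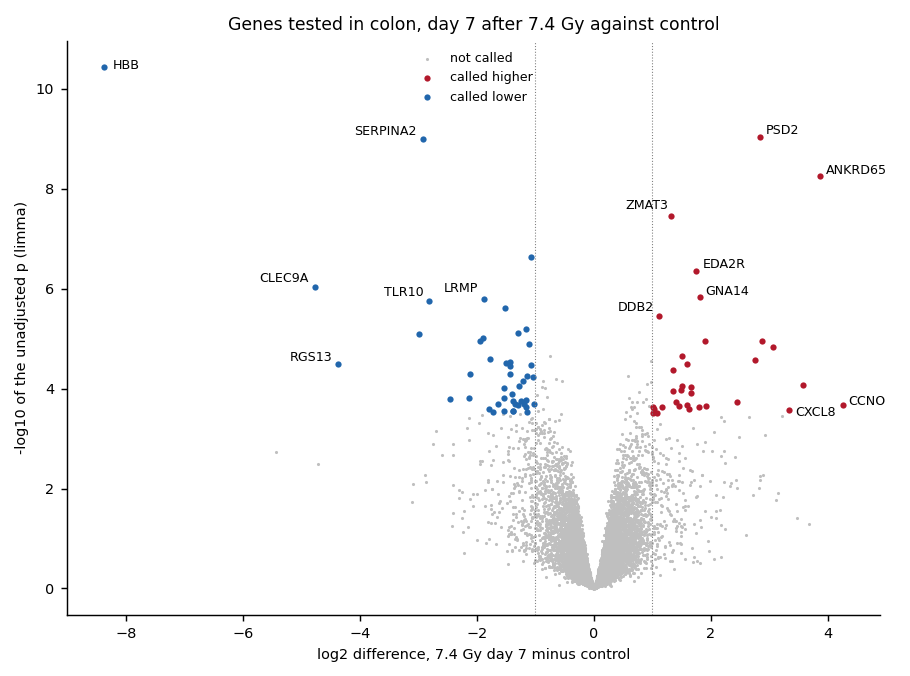
Each point is a gene of the comparison between colon 7 days after 7.4 Gy and control colon (4 arrays each), with the log2 difference on the x axis and the -log10 of the unadjusted limma p on the y axis; called genes are red (higher) or blue (lower) and the dotted lines mark 2-fold. The 46 lower called genes include HBB, far from all others at -8.38, and the 34 higher ones reach 4.26 (CCNO).

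Several targets of p53 were higher on day 7. Of 23 tested genes of the p53 list, 4 rose (EDA2R, ZMAT3, DDB2 and GDF15), against 0.244% of all genes tested, and none fell. The median difference of the list was 0.52, and in 11 of the 23 genes every irradiated array was above every control array, as in 3.78% of all genes tested. The mean level of the list was -0.01, -0.14, -0.04 and -0.10 in controls 1 to 4, and 0.48, 0.45, 0.47 and 0.50 in irradiated animals 1 to 4. The groups did not overlap, and irradiated animal 3, which lay among the controls on the first principal component, did not differ from its group here.

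EDA2R, a receptor of the TNF receptor superfamily, stood at -1.49, -1.45, -1.31 and -2.00 in the controls and at -0.03, 0.33, 0.51 and -0.08 in the irradiated animals. All irradiated values were above all control values, a difference of 1.74 ± 0.24 (SE; limma adjusted p = 0.0014). ZMAT3, a zinc finger protein that binds RNA, gave -4.92, -5.29, -4.67 and -4.43 in the controls and -3.34, -3.63, -3.43 and -3.61 after irradiation. It rose by 1.32 ± 0.15 (adjusted p = 0.00016), again with no overlap. For DDB2, which recognises damaged DNA for nucleotide excision repair, the control levels were 2.11, 2.12, 2.20 and 2.12 and the irradiated levels 3.31, 3.18, 3.40 and 3.09. The difference of 1.11 ± 0.17 (adjusted p = 0.0062) was 2.16-fold, and a second DDB2 probe was called as well (1.25). These genes kept their call when each of the 8 arrays was left out in turn and with slide as a block.

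GDF15, a stress-induced cytokine of the TGF-beta family, measured 0.81, 0.44, 0.27 and 0.16 in the controls and 2.10, 1.97, 1.53 and 3.28 in the irradiated animals. Its groups were separate, but irradiated animal 4 was well above the rest, and the call (1.80 ± 0.40, adjusted p = 0.043) was lost without that animal, among others, with leave-one-out adjusted p-values up to 0.18. PMAIP1, the pro-apoptotic protein NOXA and another gene that p53 can induce, was not on the list and rose by 1.66 ± 0.34 (adjusted p = 0.028). Its levels were -4.63, -4.56, -4.74 and -4.84 in the controls and -2.62, -2.79, -3.38 and -3.32 after irradiation, without overlap. The remaining list members did not pass the test, among them PHLDA3 (1.09, adjusted p = 0.071), RPS27L (0.80, adjusted p = 0.068), SESN2 (0.72, adjusted p = 0.061) and the cell cycle inhibitor CDKN1A (0.52, adjusted p = 0.35). MDM2, the ubiquitin ligase that p53 induces against itself, differed by 0.30 and TP53INP1 by -0.14.

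CXCL8 and CXCL2, chemokines that attract neutrophils, were higher. In the list of NF-kB and inflammatory cytokine genes these 2 of 24 rose, against 0.244% of all genes tested, none fell, and the median difference was 0.29. CXCL8, interleukin 8, measured -5.46, -5.95, -4.77 and -7.89 in the controls and -1.83, -2.75, -3.62 and -2.49 in the irradiated animals. The groups were separate and the difference was 3.34 ± 0.76 (adjusted p = 0.046), but only 1 control array was well above background, and the other CXCL8 probes gave 1.45 and 1.34 and were not called. CXCL2 gave -5.25, -4.04, -5.30 and -3.85 in the controls and -1.13, -2.20, -3.14 and -0.92 after irradiation. It rose by 2.76 ± 0.51 (adjusted p = 0.017), with irradiated animal 3 nearest to the controls. Neither gene kept its call with slide as a block (adjusted p = 0.14 and 0.080), and no gene of the list was called without irradiated animal 1 or without irradiated animal 4, while 5 were called without irradiated animal 3 and 1 without control 1.

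Other cytokines of the list were separated between the groups without passing the test. IL1A, an alarm cytokine of epithelium, differed by 3.21 (adjusted p = 0.052), CXCL1 by 2.05 (adjusted p = 0.077) and CCL20, which attracts lymphocytes and dendritic cells, by 2.17 (adjusted p = 0.12). CCL20 lay between -2.02 and -0.70 in the controls and between 0.69 and 1.21 in the irradiated animals. TNF (0.06), IL6 (-0.59), PTGS2 (-0.03) and the feedback inhibitors NFKBIA (0.04) and TNFAIP3 (0.04) were close to or below the control mean. The mean level of the list was between -2.02 and -1.85 in the controls and between -1.55 and -0.85 in the irradiated animals. TNIP3, a partner of TNFAIP3 that restrains NF-kB and is no list member, measured -5.26, -3.84, -3.96 and -4.05 in the controls against -0.69, -1.54, -2.94 and -0.44. It rose by 2.88 ± 0.49 (adjusted p = 0.012), and lost the call only without irradiated animal 4 when arrays were left out. Its second probe had no control array well above background and was at least 2.60-fold higher (adjusted p = 0.017).

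The highest differences of called genes were found in genes of several kinds. CCNO, cyclin O, known for its part in making cells with many cilia, measured -6.51, -6.69, -6.39 and -5.68 in the controls and -0.96, -4.05, -2.14 and -1.09 after irradiation. The difference of 4.26 ± 0.94 (adjusted p = 0.041) had the largest value among the higher genes, but a second CCNO probe, well above background on all 8 arrays, gave -0.05. ANKRD65 lay between -7.06 and -6.42 in the controls, with no array well above background, and between -3.58 and -2.30 in the irradiated animals, at least 6.40-fold higher (adjusted p = 2.9e-05). PSD2, an exchange factor for the small GTPase ARF6, lay between -7.49 and -6.69 in the controls, none well above background, and gave -4.15, -4.47, -4.16 and -4.58 in the irradiated animals. It was at least 2.45-fold higher (adjusted p = 7.1e-06), with an irradiated SD of 0.22. GNA14, an alpha subunit of the Gq class, rose from -2.25 ± 0.23 to -0.44 ± 0.67 (SD, n = 4 each; adjusted p = 0.0038). ANKRD65, PSD2 and GNA14 kept their call when any array was left out and with slide as a block.

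The other high genes varied more among the irradiated animals. GPR110, an adhesion G protein-coupled receptor, measured -1.12, -2.74, -4.44 and 0.06 after irradiation against -6.57 to -4.48 in the controls. Its difference of 3.58 ± 0.73 (adjusted p = 0.027) was 0.05 between the 2 arrays of slide 1 and 6.10 between those of slide 2. SCEL, sciellin, a precursor of the cornified envelope of stratified epithelia, gave -3.26, -5.25, -5.80 and -2.79 after irradiation and between -7.73 and -6.89 in the controls, none of them well above background. It was at least 2.56-fold higher (adjusted p = 0.014) and its second probe was called too. In GPR110, SCEL and TNIP3 alike, irradiated animal 3 was nearest to the controls and animal 4 farthest from them. C1H1orf100 (2.44), FAM169A (1.92; another probe 0.24) and the annexin ANXA9 (at least 1.19-fold) were also called, with leave-one-out adjusted p-values up to 0.14, 0.17 and 0.12. PDK4, a kinase that inhibits pyruvate dehydrogenase, was the called member of the fatty acid oxidation and PPAR list (1 of 14). It rose from -0.55 ± 0.34 to 0.95 ± 0.39 (SD, n = 4 each, adjusted p = 0.030), with no overlap. A dimmer PDK4 probe was not called, and its groups overlapped (1.36, adjusted p = 0.21).

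Genes of mucosal defence and epithelial stress had high differences without passing the test. None of the 18 tested members was called, although all 18 had a positive difference and the median was 1.62. The mean level of the list was -2.60, -2.39, -2.49 and -2.13 in the controls and 0.21, -1.24, -2.28 and 0.54 in the irradiated animals. Irradiated animal 3 lay among the controls, and without it 3 members were called and the median was 2.15. The lowest median when 1 array was left out was 1.20. REG1A, a secreted lectin of regenerating epithelium, shows the spread: it measured 0.57, -3.73, -7.02 and 1.87 after irradiation and between -6.74 and -4.94 in the controls (3.68 ± 1.77, adjusted p = 0.43). NOS2, inducible nitric oxide synthase, gave 4.03, 1.93, -1.06 and 3.01 against -1.78 to -0.21 (2.84, adjusted p = 0.19), and the antimicrobial protein LCN2 gave 4.83, 3.85, 2.76 and 5.38 against 2.85 to 3.59 (0.98, adjusted p = 0.38). A second, dimmer LCN2 probe was called (3.85, adjusted p = 0.025), although its groups overlapped. LCN15, a lipocalin, lay between -4.25 and -2.05 after irradiation and between -6.99 and -4.82 in the controls (2.93, adjusted p = 0.081), and the claudin CLDN2, which forms cation pores in leaky junctions, ran from -5.86 in irradiated animal 3 to 0.08 in animal 4 (2.89, adjusted p = 0.18).

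A few lymphocyte genes fell. In bulk tissue, fewer cells of a type and less of an RNA per cell cannot be told apart. Of 20 tested T lymphocyte genes, 2 fell (THEMIS and CD27) and none rose, against 0.33% of all genes called lower. The difference was negative for all 20, with a median of -1.05, while 6803 of the 13953 genes tested were negative. The mean level of the list was -1.91, -0.79, -1.19 and -0.92 in the controls and -1.71, -2.16, -2.47 and -2.71 in the irradiated animals. Control 1 lay within the irradiated range, so the groups overlapped, and without that array 8 of the 20 genes were called and the median was -1.31. Without irradiated animal 3, 1 was called. No T lymphocyte gene was called without control 2, 3 or 4, without irradiated animal 4 or with slide as a block, but all 20 stayed negative in each of these fits and within both scan days (medians -1.13 and -0.83). The 8 smooth muscle genes were also all negative, to a lesser degree (median -0.53), and none was called. Their mean was between 4.55 and 5.10 in the controls and between 3.71 and 4.85 after irradiation, so the groups overlapped. Whether this list moved with the T lymphocyte list was not tested, nor was its part in the result.

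THEMIS, which sets the signalling threshold of the T cell receptor, measured -3.34, -2.47, -2.45 and -2.56 in the controls and -3.60, -3.48, -4.12 and -4.75 in the irradiated animals. The groups were separate by a small margin at control 1, and the gene fell by 1.28 ± 0.26 on the log2 scale (adjusted p = 0.028). A dimmer THEMIS probe was not called, and its groups overlapped (-1.14, adjusted p = 0.33). CD27, a costimulatory receptor of T and memory B cells, measured 0.43, 1.59, 1.16 and 2.28 in the controls and 0.45, 0.19, -0.07 and -0.64 after irradiation, where control 1 lay within the irradiated range (-1.39 ± 0.31, adjusted p = 0.047). Defining markers did not pass the test: CD3E differed by -1.12 (adjusted p = 0.16), CD3G by -1.04 (0.12), CD4 by -0.68 (0.096) and CD8A by -0.67 (0.45). LCK, another list member, was called lower by a dimmer probe only, without overlap (-1.46, adjusted p = 0.031).

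Among 19 tested genes of cytotoxic and natural killer lymphocytes, 1 fell and the median was -0.96. The count was 3 without control 1, 4 without irradiated animal 3, and 0 without control 2 or 4 or irradiated animal 2 or 4. This was KLRK1, the activating receptor NKG2D, at -3.65, -2.33, -2.67 and -2.57 in the controls and -3.65, -4.51, -3.65 and -3.96 in the irradiated animals. Its groups touched at control 1 (-1.14 ± 0.26, adjusted p = 0.047), while a second, dimmer KLRK1 probe fell by 2.16 without overlap. The brightest probes of the chemokine CCL5 (-1.73, adjusted p = 0.080), the transcription factor EOMES (-1.56, adjusted p = 0.050) and the natural killer receptor KLRD1 (-1.56, adjusted p = 0.14) did not overlap between the groups but were not called. Dimmer probes of CCL5 (-1.81 and -2.02, adjusted p = 0.041 and 0.028) and of KLRD1 (-1.91, adjusted p = 0.034) were called lower, also without overlap, and the granule proteins GZMB (-0.42), GZMA (-0.40) and PRF1 (-0.19) were nearer to the control mean. Of genes outside the lists, KIR3DL2, a killer cell immunoglobulin-like receptor, measured -4.10, -2.47, -2.62 and -3.33 in the controls and -5.82, -5.20, -4.77 and -4.50 after irradiation (-1.94 ± 0.33, adjusted p = 0.012). Its family holds many near-identical genes, which a probe may not separate. CRTAM, found on activated cytotoxic T and natural killer cells, was not well above background on any irradiated array and was at least 1.91-fold lower (adjusted p = 0.021).

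No B lymphocyte gene was called, of 15 tested, and 12 were negative with a median of -0.93. Without control 1, 4 were called lower and the median was -1.12. Without control 4 the median was -0.66 and none was called. The mean level of the list was -3.36, -2.61, -2.05 and -1.13 in the controls, a wider range than the -3.65 to -3.11 of the irradiated animals. MS4A1, CD20, showed the same spread, with -7.43, -7.67, -5.30 and -2.52 in the controls and a mean of -7.99 ± 0.42 (SD, n = 4) after irradiation, where no array was well above background (adjusted p = 0.25). CD37 was the member with the smallest p (-0.93, adjusted p = 0.078). TLR10, a Toll-like receptor known mainly from B cells and no list member, gave -4.51, -3.33, -4.14 and -2.46 in the controls and -6.15, -6.21, -6.41 and -6.95 after irradiation, where no array was well above background. It was at least 4.20-fold lower (adjusted p = 0.0038). In the germinal centre list 1 of 11 genes fell, or 3 without control 1. This was RGS13, a regulator of chemokine receptor signalling in germinal centre B cells, at -1.72, -3.88, -1.60 and -0.36 in the controls and -6.98, -6.84, -3.79 and -7.44 after irradiation (-4.37 ± 0.82, adjusted p = 0.017). Irradiated animal 3 lay in the range of the controls and the other 3 irradiated animals far below it. The call was lost without control 4 and without irradiated animal 1, 2 or 4, with adjusted p-values up to 0.085. Of 10 plasma cell genes none was called (median -0.65).

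CLEC9A, the receptor by which cross-presenting dendritic cells sense dead cells, fell on day 7. It measured -3.80, -2.29, -2.48 and -2.68 in the controls and -7.21, -7.52, -7.93 and -7.68 in the irradiated animals. No irradiated array was well above background, and the gene was at least 7.30-fold lower (adjusted p = 0.0027). The call held when any array was left out and with slide as a block (adjusted p = 0.025). It was the only called gene among 13 tested of the dendritic cell list, whose median was -0.17. By a dimmer probe, WDFY4 of this list was called lower too, without overlap between the groups (-1.49, adjusted p = 0.0075). Without control 1 the list had 3 called genes and a median of -0.41, and without irradiated animal 3 it had 3 and -0.45. Without irradiated animal 4 it had 1 called gene, a median of 0.04 and 7 of 13 genes positive, and without control 4 it had 1 and -0.02. FCER1A (-1.91, adjusted p = 0.052) and CD1C (-1.96, adjusted p = 0.061), markers of another type of dendritic cell, did not overlap between the groups, while XCR1 (-0.04) and BATF3 (-0.02), which the cross-presenting type shares with CLEC9A, overlapped and were not called.

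Further genes of leukocytes fell. PTPRC, the pan-leukocyte phosphatase CD45, measured -4.30, -2.56, -4.01 and -3.06 in the controls and -5.19, -4.75, -5.04 and -5.13 after irradiation. The irradiated animals lay close together below the controls (-1.54 ± 0.32, adjusted p = 0.029). ITGA4, the integrin subunit that guides lymphocytes to the gut, was the called member of the lymphoid stroma and homing list (1 of 15; -1.30 ± 0.29, adjusted p = 0.041), and control 1 (-2.04) and irradiated animal 1 (-2.03) had nearly the same level. The dimmer ITGA4 probe was not called, and its groups overlapped (-1.05, adjusted p = 0.21). MYO1F, a myosin of leukocytes, was at least 2.18-fold lower (adjusted p = 0.017), and ALOX5, which makes leukotrienes, gave -1.87, -2.42, -1.54 and -1.65 in the controls against -3.89, -3.66, -2.96 and -3.50 (adjusted p = 0.041). The dimmer ALOX5 probe was not called, although its groups did not overlap (-1.12, adjusted p = 0.11). LRMP, a membrane protein of lymphoid cells and also the called member of the tuft cell list (1 of 8), fell from -0.61 ± 0.46 to -2.48 ± 0.55 (SD, n = 4 each; adjusted p = 0.0038). TMEM156 and the polysialyltransferase ST8SIA4 fell by 1.52 and 1.90 (adjusted p = 0.0051 and 0.012), and both kept their call when any array was left out. No macrophage and monocyte gene of 14 was called (median -0.21) and none of 6 neutrophil genes (median 0.16).

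HBB, the beta chain of haemoglobin, had the largest difference of all genes tested. It measured 2.44, 2.17, 3.25 and 3.38 in the controls and -5.28, -5.80, -5.05 and -6.14 in the irradiated animals, 2 of which were well above background. The groups were far apart, and HBB fell by 8.38 ± 0.64 on the log2 scale, or 333-fold (adjusted p = 6.5e-07). A second HBB probe, on no irradiated array well above background, was at least 52.5-fold lower. HBB kept its call under every alternative that was tried. Other genes of red blood cells behaved differently from each other: HBB was the only called gene of 12 (2 were called without irradiated animal 3), and the median was -0.13. For HBA2, an alpha chain, the brightest probe stood at 7.64, 7.03, 8.01 and 7.93 in the controls and at 7.22, 7.08, 7.26 and 7.10 in the irradiated animals (-0.49, not called), and a dimmer probe fell from 2.35 ± 0.74 to -2.04 ± 0.05 (SD, n = 4 each; difference -4.39, called). The probes of this gene disagree, and globin genes have near-identical copies. HBG2, another globin of the list, had a dimmer probe that was called lower without overlap (-2.23, adjusted p = 0.029). That probe was well above background on 1 irradiated array. ALAS2, the first enzyme of haem synthesis in red cell precursors, was well above background on 3 control arrays and on no irradiated array (adjusted p = 0.10), and the red cell structural gene EPB42 (0.04) was at the control level.

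Of the remaining lower genes, SERPINA2, a serpin, was among the steadiest. It gave 0.65, 0.65, 1.80 and 1.84 in the controls and -1.68, -2.01, -1.46 and -1.63 after irradiation, with no overlap (-2.93 ± 0.27, adjusted p = 7.1e-06). The 2 controls scanned on the first scan day were the lower ones, with differences of -2.20 on that day and -3.66 on the second. THRSP, a regulator of fat synthesis and the called member of the adipocyte list (1 of 9), was at least 2.53-fold lower (adjusted p = 0.011). HSPB1, the small heat shock protein HSP27, was the called member of the heat shock list (1 of 15) and gave 6.81, 5.60, 6.49 and 6.26 in the controls and 4.57, 4.88, 5.21 and 4.45 after irradiation (-1.51 ± 0.28, adjusted p = 0.017). The groups did not overlap. The peptide transporter SLC15A2 (-1.54, adjusted p = 0.047) and DRC12 (-1.72, adjusted p = 0.047; another probe -0.04) lost their call without most of the arrays.

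**Figure D2:**
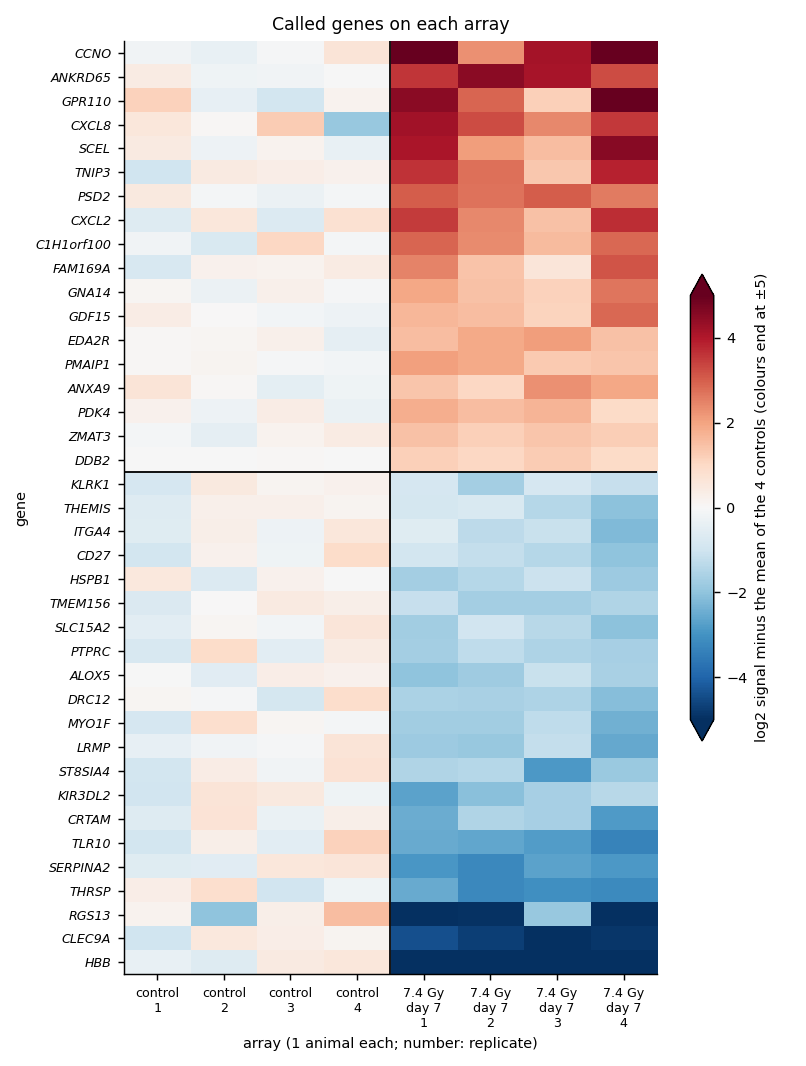
Colour map of the 39 called genes named by the rule, with 1 row per gene, 1 column per array (controls 1 to 4, then irradiated animals 1 to 4) and colour for the log2 level minus the mean of the 4 controls. Irradiated animal 3 is paler than animals 1 and 4 in GPR110, SCEL and TNIP3, and control 1 is below the other controls in THEMIS.

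Colon epithelium identity genes were near the control level. Of 10 none was called, 5 were positive and 5 negative, and the median was -0.02 (-0.05 to 0.15 over the scalings). Absorptive colonocyte genes were not called either (0 of 18), with 16 negative and a median of -0.69. Their mean level was 3.24, 3.21, 3.37 and 3.51 in the controls and 2.37, 2.95, 3.42 and 1.54 in the irradiated animals, so that animal 3 lay within the controls and animal 4 far below. Without animal 3 the median was -1.09, with 1 gene called higher and 2 lower, and without animal 4 it was -0.38, with none called. CA1, a carbonic anhydrase of surface colonocytes, gave -2.57, -1.23, 0.72 and -4.65 against 0.67 to 1.32 in the controls (-2.86 ± 0.96, adjusted p = 0.21). Genes of mitosis were positive for all 25 tested, with a median of 0.43, and none was called. Their mean level was -0.90, -0.27, -0.39 and -0.22 in the controls and 0.38, -0.08, -0.60 and 0.30 after irradiation. The groups overlapped at irradiated animal 3, and without control 1 the median was 0.24. DNA replication genes (0 of 23 called, median 0.21), crypt stem cell genes (0 of 12, median -0.04), goblet cell genes (0 of 13, median 0.36), small intestinal enterocyte genes (0 of 16, median 0.24) and tight junction genes (0 of 14, median 0.07) included no call. By a dimmer probe, TYMS of the DNA replication list was called higher without overlap (1.13, adjusted p = 0.014). Its other dimmer probes were not called (0.87 and 0.93). Without irradiated animal 3, 2 DNA replication genes were called higher (median 0.41), as were 2 small intestinal enterocyte genes, 1 goblet cell gene and 1 tight junction gene. The lowest median of the DNA replication list when 1 array was left out was 0.04.

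Interferon response genes differed between the scan days. None of 24 was called and the median was 0.47, but within the first scan day (controls 1 and 2, irradiated animals 3 and 4) the median was -0.21 and within the second it was 1.11. Their mean level was 0.68 and 0.04 in irradiated animals 1 and 2 and -1.06 and -0.93 in animals 3 and 4, against -1.11 to -0.35 in the controls. The 8 smooth muscle genes were all negative (median -0.53, none called), the median of 16 fibroblast and matrix genes was 0.21, and that of 12 endothelial genes was -0.19, each with no call. Over all 37 lists, 538 of 715 genes were tested, and 7 rose and 10 fell, against 0.244% higher and 0.33% lower among all genes tested.

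**Figure D3:**
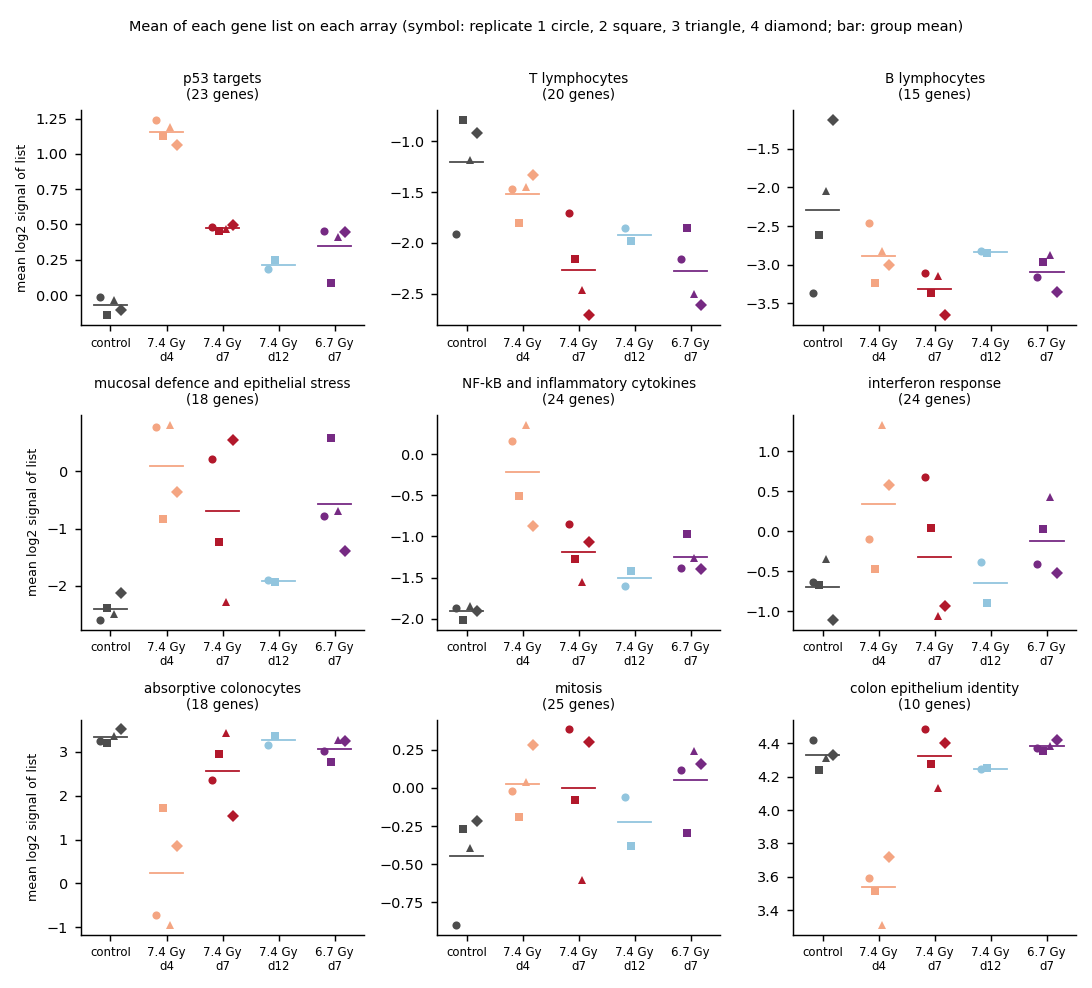
Mean log2 level (relative to the 75th percentile of the array) of the tested genes of 9 gene lists, 1 point per array and a line for the group mean, in controls, 6.7 Gy day 7, 7.4 Gy day 4, 7.4 Gy day 7 and 7.4 Gy day 12. The p53 targets separate the 7.4 Gy day 7 arrays (0.45 to 0.50) from the controls (-0.14 to -0.01), while the mucosal defence list spreads from -2.28 to 0.54 on day 7.

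**Figure D4:**
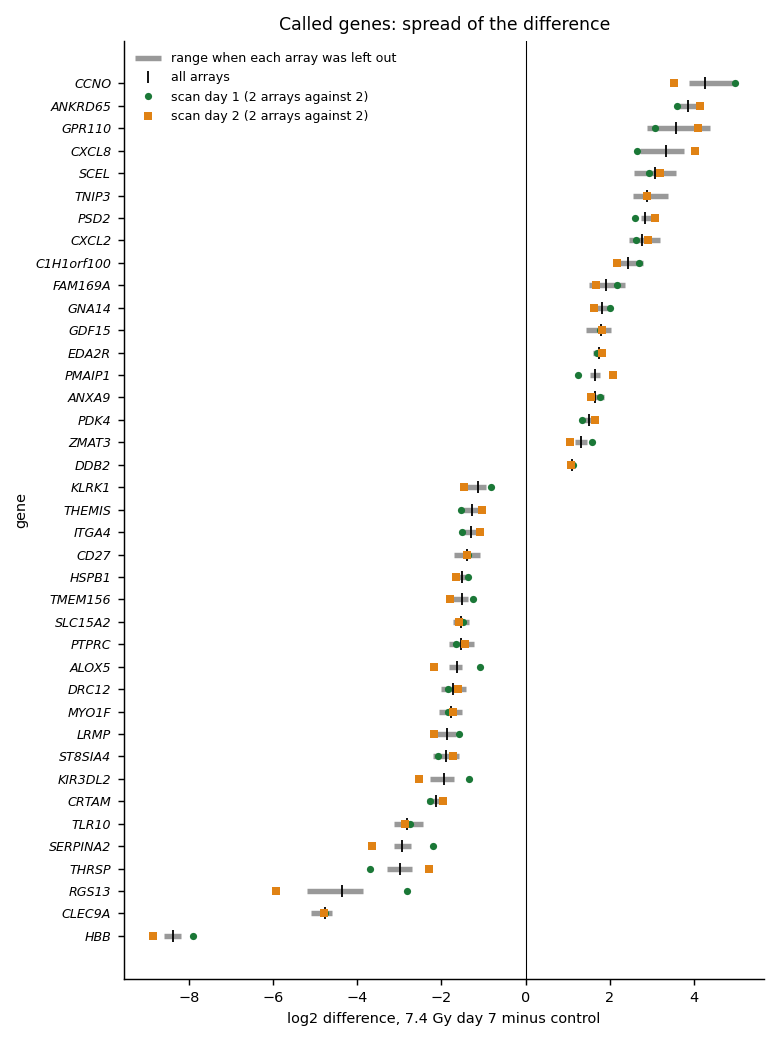
Log2 difference between 7.4 Gy day 7 and control for the 39 called genes named by the rule, with the range over leaving out each of the 8 arrays in turn and the values within each scan day. All 39 have the same sign within both scan days. For the genes chosen because their groups do not overlap, this was fixed by that choice.

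The 4 colons taken on day 7 after 7.4 Gy were then set against the 4 taken on day 7 after 6.7 Gy. No probe was called (0%) in limma, and 129 probes (0.364%) passed an unadjusted p under 0.05 with a 2-fold difference. The methods' t-test gave 61 such probes unadjusted and 1 after adjustment. The median size of the difference over genes was 0.12 on the log2 scale, against 0.19 for 7.4 Gy day 7 against control, a comparison of 4 animals with 4 in each case. Single genes had intervals that allow differences of more than 2-fold in either direction, since CXCL8 differed by -0.21 with a 95% interval of -1.80 to 1.37, and GPR110 by -0.27 with -1.79 to 1.25. The p53 targets were measured more tightly. EDA2R differed by 0.16 (-0.34 to 0.65), ZMAT3 by 0.17 (-0.15 to 0.49), DDB2 by 0.03 (-0.33 to 0.40) and GDF15 by -0.19 (-1.03 to 0.65). A few intervals did not hold 0 before adjustment: HBB was 1.81 lower after 7.4 Gy (-3.16 to -0.47), PSD2 1.11 higher (0.56 to 1.66) and GNA14 0.82 higher (0.26 to 1.38), and none of these passed the adjustment over all probes. Control and 6.7 Gy day 7 values of HBB were 2.81 ± 0.60 and -3.76 ± 0.91, and that of 7.4 Gy day 7 was -5.57 ± 0.49 (SD, n = 4 each). Only 2 of the 7.4 Gy day 7 arrays were well above background for HBB, so its difference between the doses rests in part on dim values. These intervals do not show that the doses act alike.

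Against day 4 at the same dose, day 7 differed far more. Of 35395 probes, 2036 (5.75%) were called, 1136 higher (3.21%) and 900 lower (2.54%) on day 7, and 888 genes (6.36%), 478 higher (3.43%) and 410 lower (2.94%). The median size of the difference over genes was 0.34. The probes had been chosen on the arrays of the comparison with control, which holds no irradiated day 4 array. A probe well above background on irradiated day 4 arrays, but on fewer than 2 of the choosing arrays, was not tested. Transcripts high on day 4 and undetected by day 7 can therefore be missing from the lower counts. How far this shaped the counts and percentages was not tested. All day 4 arrays were scanned on the second scan day, and with scan day as a block 1572 probes were called (1004 higher, 568 lower). Array position and day cannot be told apart here either. Absorptive colonocyte genes were higher on day 7: 14 of 18 rose, none fell and the median difference was 2.43. CHP2, a regulator of sodium-proton exchange, rose by 4.98 ± 0.81, from a mean of -3.48 ± 2.57 on day 4 (SD, n = 4; adjusted p = 0.00069), and gave 0.84, 2.21, 2.51 and 0.43 on day 7. CA1 rose by 4.60 (adjusted p = 0.0036), GIP, an incretin hormone, by 4.35 (adjusted p = 0.00016), and NXPE1 by 4.40 ± 0.44 (adjusted p = 2.2e-05), to -0.48 ± 0.26 on day 7, beside -0.44 ± 0.13 in the controls. The chloride exchanger SLC26A3 (3.71) and the tight junction claudin CLDN8 (4.28) were called higher too. Among goblet cell genes 6 of 13 rose, with the mucin MUC2 at 1.11 and the transcription factor ATOH1 at 1.75, and in the colon epithelium identity list 3 of 10 rose (median 0.68).

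Several p53 and inflammatory genes were lower on day 7 than on day 4. Among all genes tested, 2.94% were called lower in this contrast. Of 23 p53 targets, 7 fell and none rose. Those that fell included GDF15 (-3.11, adjusted p = 0.00012), PLK2 (-1.61), ZMAT3 (-1.23, adjusted p = 9.2e-05) and EDA2R (-1.05, adjusted p = 0.0061). EDA2R stood at 1.23 ± 0.11 on day 4 and 0.18 ± 0.29 on day 7, with -1.56 ± 0.30 in the controls (SD, n = 4 each) and -0.55 and -0.38 in the 2 animals of day 12. Of 24 NF-kB and inflammatory genes 8 fell, including CXCL8 (-2.45), CXCL3 (-2.37), CXCL1 (-1.95), PTGS2 (-1.75) and TNF (-1.14). CLDN2 (-4.72), SERPINB5 (-4.68), MMP7, a matrix metalloproteinase (-3.87), and TGM3 (-3.60), a transglutaminase, were lowest against day 4. CLDN2 stood at 2.02 ± 0.72 on day 4 and -2.69 ± 2.83 on day 7. Among T lymphocyte genes the homing receptor CCR7 (-2.64), CTLA4 (-1.75) and IL7R (-1.02) fell from day 4 to day 7, 3 of 20, with a median of -0.57, while no cytotoxic and natural killer, plasma cell or neutrophil gene was called and 1 gene each of the B lymphocyte and germinal centre lists was higher. CLEC9A was 2.71 lower on day 7 than on day 4, a fitted difference that involves arrays not well above background on day 7 (adjusted p = 0.011). HBB was 2.42 lower on day 7 (adjusted p = 0.015), where only 2 arrays were well above background, and it was -1.58 and 1.14 in the 2 animals of day 12. GNA14 went the other way and was 1.16 ± 0.27 higher on day 7 (adjusted p = 0.0069).

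**Figure D5:**
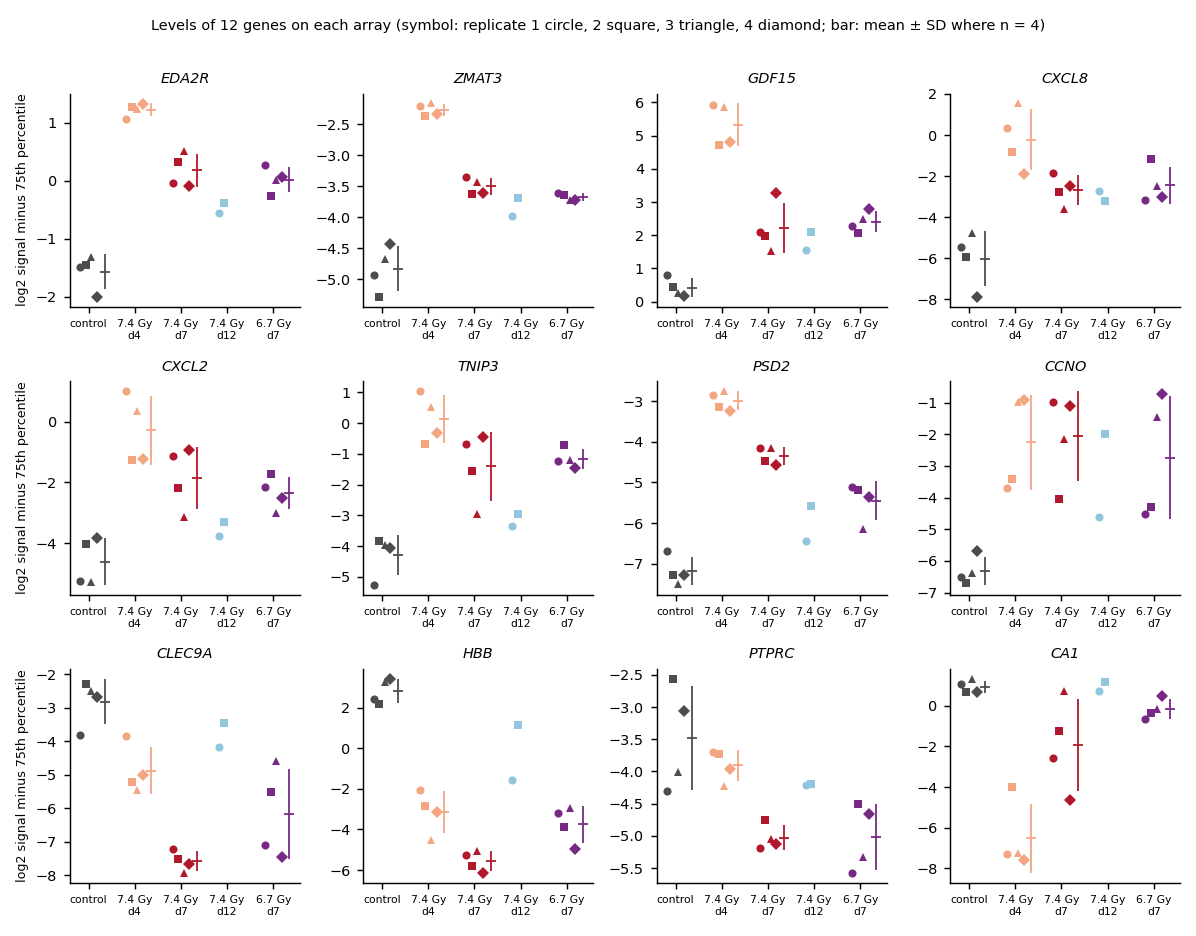
Log2 level of 12 genes on each array of 5 groups (controls, 6.7 Gy day 7, 7.4 Gy days 4, 7 and 12), with 1 point per animal and a bar for the mean ± SD where a group has 4 animals. EDA2R and ZMAT3 are highest on day 4 and intermediate on day 7, HBB is lowest on day 7 at -6.14 to -5.05, and CA1 spreads from -4.65 to 0.72 on day 7.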

How the data were processed

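The authors extracted spot intensities from 1-colour (Cy3) scans with Feature Extraction 11.0.1.1, which corrected background, on an array design built on rheMac2. The scanner files hold these intensities before scaling between arrays. The authors' deposited table of normalized values is log2; every value there equals the scanner value less 1 constant for the array and 1 for the probe, and the table served as an alternative.

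Here log2 processed intensity minus the array's 75th percentile over transcript probes was used, the scaling the study's methods name. Spots marked as outliers (between 24 and 712 on an array) were dropped, repeated spots of a probe were averaged, and none was saturated. Tests covered probes that 2 or more of the 8 arrays measured well above background, with limma 3.58.1 (R 4.3.3), fitting 1 mean per group to all 24 arrays, with two-sided p-values adjusted by Benjamini-Hochberg within each contrast. The tested probe that was brightest on average over the 24 arrays stood for its gene. Names came from the files for 18640 probes and from a RefSeq table for 3184 by gene ID and 84 by accession, while 1887 had only a LOC number and 19808 none. Where no array of a group of a called gene was well above background, a bound on its fold against control is given in place of the fitted difference, with the brighter group's mean set against a floor for the dimmer, which on each array is the weakest signal of any detected probe, or the probe's own signal where that is stronger, averaged over the arrays.

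Named genes were the 15 highest and 15 lowest called genes with a symbol whose groups did not overlap, called list members, for lists without a call the 2 members of smallest p and defining markers, the 4 highest and 4 lowest genes of the other contrasts, and genes the study singled out; others were named after their values were seen. The comparison and gene lists were chosen with earlier results of these data known. Some genes are not reported here and were left out of the lists and the naming rule. Each array is a different animal, so replicate numbers pair nothing; deviations of same-numbered control and irradiated animals correlated between -0.058 and 0.019. The number of arrays limits the precision.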

Additional observations from a re-analysis of the deposited data

Results flagged for a closer look

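In some groups of 4 arrays, 1 animal stood far from the other 3 by Dixon's test of the gap to its neighbour at the 95% level. In 201 groups examined this was seen 6 times, and chance gives about 1 in 20 groups. Control 1 was low for TNIP3 (-5.26, the others -4.05 to -3.84) and for THEMIS (-3.34, the others -2.56 to -2.45). Control 2 was low for the goblet cell chloride channel gene BEST2 (0.55, the others 1.63 to 1.82). Irradiated animal 3 was high for RGS13 (-3.79, the others -7.44 to -6.84) and for the granulocyte receptor CSF3R (-1.64, the others -2.11 to -2.06), and irradiated animal 4 was low for DRC12 (-2.31, the others -1.84 to -1.75).

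Of all 80 called genes, 28 were also called in limma's test of day 7 against day 4, as were 6.36% of all genes tested. No control takes part in that test, but the same 7.4 Gy day 7 arrays take part in both, so the tests are not independent. Genes called for low day 7 levels are more likely to lie below day 4 as well, and those called for high levels above it. The share over all genes tested is therefore not a like reference for the called genes. Among the 39 called genes named by the rule, 19 differed from control on day 7 otherwise than on day 4 at the same dose, by the same test. Of the genes that were higher than control, 10 were lower on day 7 than on day 4: GDF15 by -3.11 (adjusted p = 0.00012), GPR110 by -2.48 (0.024), CXCL8 by -2.45 (0.031), SCEL by -1.80 (0.027), ANKRD65 by -1.79 (0.0054), CXCL2 by -1.57 (0.039), TNIP3 by -1.55 (0.036), PSD2 by -1.35 (0.0023), ZMAT3 by -1.23 (9.2e-05) and EDA2R by -1.05 (0.0061). GNA14 was 1.16 higher on day 7 (adjusted p = 0.0069). Of the genes lower than control, CLEC9A was lower still on day 7 by -2.71 (adjusted p = 0.011), HBB by -2.42 (0.015), ST8SIA4 by -2.02 (0.00060), MYO1F by -1.49 (0.0049), CRTAM by -1.23 (0.045), TMEM156 by -1.12 (0.0035), PTPRC by -1.12 (0.021) and SLC15A2 by -1.08 (0.039). ST8SIA4 stood 0.11 above the control mean on day 4. CLEC9A, MYO1F and CRTAM were not well above background on any day 7 array after 7.4 Gy, so their differences are fitted values of dim probes. HBB was well above background on only 2 of these arrays.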

How the results depend on the processing

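For day 7 against control, the 164 called probes became 55 with normexp background correction, 15 with only the 8 arrays, 34 with slide as a block, 8 and 7 within the first and second scan day, 936 at an unadjusted p, and, by the methods' t-test, 624 unadjusted and 2 after Benjamini-Hochberg. Leaving out 1 array gave 29 (without irradiated animal 4) to 348 (without irradiated animal 3). Scaling to spike-ins moved the median over all probes to 0.17 and gave 78 higher and 40 lower; the other scalings, filters, priors and random blocks gave 112 to 213. Against 6.7 Gy, 0 probes were called except by the methods' t-test (61 unadjusted, 1 adjusted). Against day 4, the 2036 became 999 with normexp and 650 by the adjusted t-test. Array position could not be fitted as a fixed block against control or day 4; as a random block it gave 188 against control.

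Replicate number as a replicate block left 2 called probes on the 8 arrays and 135 on all 24; the numbers mark different animals.

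Of 39 called named genes, 15 kept the call whichever array was left out and 24 lost it, all 24 without irradiated animal 4; 26 lost it with slide as a block and HBB alone kept it under every alternative. CCNO gave -0.051 by its other probe, and KLRK1 0.0012 within slide 1. Lists under slide, position and scan day were examined after seeing the data.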
